A study of Mus musculus with 6 samples.

Results

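Inhibitory receptors that carry an immunoreceptor tyrosine-based inhibitory motif (ITIM) were examined in follicular B cells cultured for 1 h with or without the lipid receptor GPR174. The set was a named list of 8 genes, Cd22, Cd72, Fcgr2b, Btla, Pirb, Lair1, Pecam1 and Siglecg, all of which were found among the 12431 genes of the count table. Of these, 7 were listed under the same symbol, and Pirb was listed under its synonym Lilrb3. All 8 passed the filter on low counts, which 10514 genes passed in all. The list was drawn up with earlier results on these data in view, and Cd22 and Btla are among the genes that the study itself discusses.

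CD21/35- CD23+ follicular B cells were sorted from the spleens of adult male mice, and RNA was taken after 1 h in complete RPMI medium with no added stimulus. There were 3 WT mice (Gpr174+/Y) and 3 GPR174-deficient mice (Gpr174-/Y, KO), with 1 library from each. In KO mice a tdTomato reporter stands in place of the coding exon of Gpr174 in all cells, and the line was made in 129 embryonic stem cells and backcrossed to C57BL/6J. The comparison asks which receptors already differed early in unstimulated culture, when GPR174 can act in WT cells only.

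ITIM receptors restrain signaling by the B cell receptor (BCR). Src-family kinases, chiefly LYN in B cells, phosphorylate the tyrosine in the motif. The phosphorylated tail then recruits phosphatases, among them the tyrosine phosphatase SHP-1 (encoded by Ptpn6) and the lipid phosphatase SHIP-1 (Inpp5d). The receptors differ in what they bind. CD22 and Siglec-G bind sialic acids, FcγRIIB binds IgG in immune complexes, BTLA binds HVEM, PIR-B binds class I MHC, LAIR1 binds collagens, CD72 binds semaphorin 4D, and PECAM1 binds itself on neighboring cells.

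Libraries held 8452460 to 10944833 counts. Levels are given as CPM, the read count relative to the library total after scaling by trimmed mean of M-values (TMM) factors, and log2 fold changes are WT over KO, so that a negative value is a lower level in WT. Gpr174 was still counted in KO cells, at 127.6 CPM ± 7.43 in WT against 99.95 ± 0.21 in KO (SD, n = 3). It was higher in all WT libraries than in all KO libraries (edgeR adjusted p = 0.0359), but the call was lost in 5 of the 6 fits without 1 library, and since reads remained in KO it was not used as a check of the labels. Markers of follicular B cells ranged in WT from 1285 CPM for Ms4a1 down to 10.3 CPM for Pax5. Markers of marginal zone B cells summed to 1642 to 1942 CPM per library, mostly from Cr2 and Plac8, at 1043 and 516 CPM in WT. Dtx1 was at 201 CPM in WT, Cd1d1 at 30.4, Myof at 25.2, S1pr3 at 21.7 and Cd9 at 6.24. The sum is therefore not a measure of how many marginal zone B cells were present. The 7 T cell markers summed to 6.46 to 16.2 CPM. On the first principal component, which held 40.0% of the variance of the 500 most variable genes, WT replicate 2 lay at 32.5 and the other 5 libraries between -8.18 and -4.33. Values for the receptors that moved by over 1.5 times without this library are also given without it.

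The receptors spanned a wide range of abundance. Cd22 was the most abundant at a mean of 589 CPM over the 6 libraries, higher than 97.9% of tested genes. Siglecg at 383 CPM and Btla at 379 CPM followed, in this order in 5 of the 6 libraries, and their ranges over the libraries overlapped. Pecam1 came next at 250.2 CPM, then Fcgr2b at 75.0 CPM, Pirb at 27.0 CPM, Cd72 at 12.9 CPM and Lair1 at 3.98 CPM. Apart from Siglecg and Btla, the ranges of neighbors in this order did not overlap. Libraries were primed at the 3′ ends of transcripts, where reads per transcript do not grow with length. When levels were nevertheless divided by the length of the longest annotated transcript, the order began with Cd22 at 148 CPM per kilobase, Btla at 117 and Siglecg at 96.0, an order that held within all 6 libraries although the ranges of Cd22 and Btla and of Btla and Siglecg overlapped. Pirb and Cd72 also overlapped and held their order in 5 of 6.

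**Figure D1:**
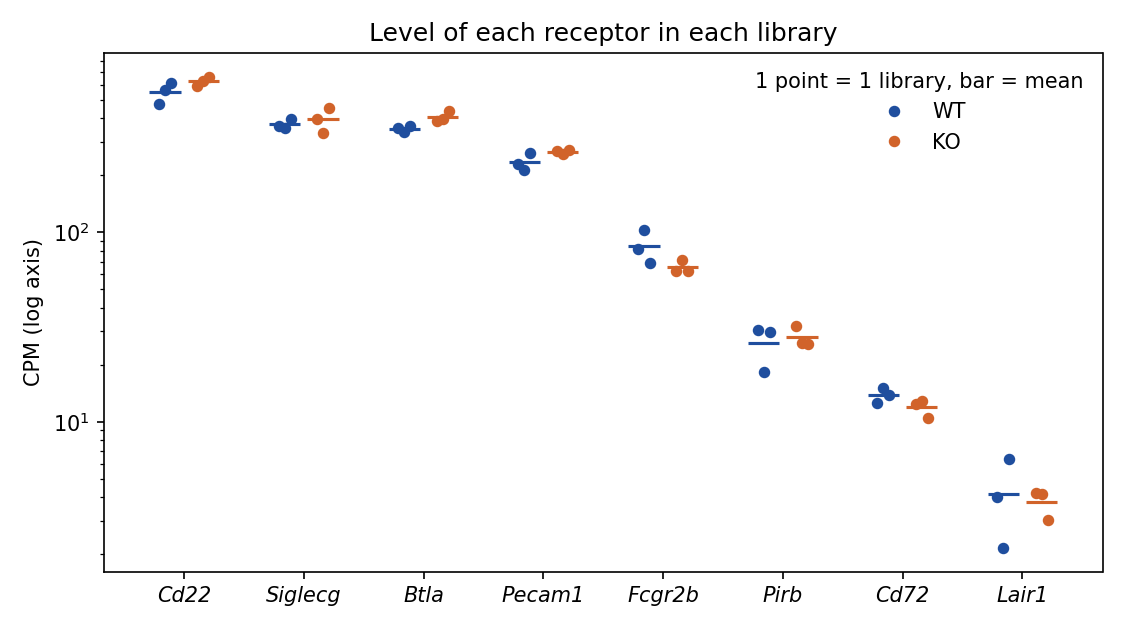
CPM on a log axis for each receptor in the 3 WT and the 3 KO libraries, with 1 point per library and a bar at the group mean. Cd22 lay between 478 and 663 CPM and Lair1 between 2.15 and 6.36 CPM, and WT and KO points were fully apart only for Btla.

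At an adjusted p under 0.05 by edgeR's quasi-likelihood test, 0 of the 8 receptors differed between WT and KO, where 1.82% of all tested genes did. DESeq2 and limma-voom also called 0 of the 8. Shifts were small: 5 receptors had a negative log2 fold change, as did 50.4% of all tested genes, and 3 a positive one, with a median of -0.09 against -0.003 over all tested genes. Without WT replicate 2 the median over the receptors was 0.023. At an unadjusted p under 0.05 there were 4 of the 8, with Cd22, Btla and Pecam1 lower in WT and Fcgr2b higher. Of all tested genes 11.9% reached that level, 5.37% lower and 6.5% higher. In RNA from bulk cells, fewer cells of a type and less RNA per cell cannot be told apart.

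**Figure D2:**
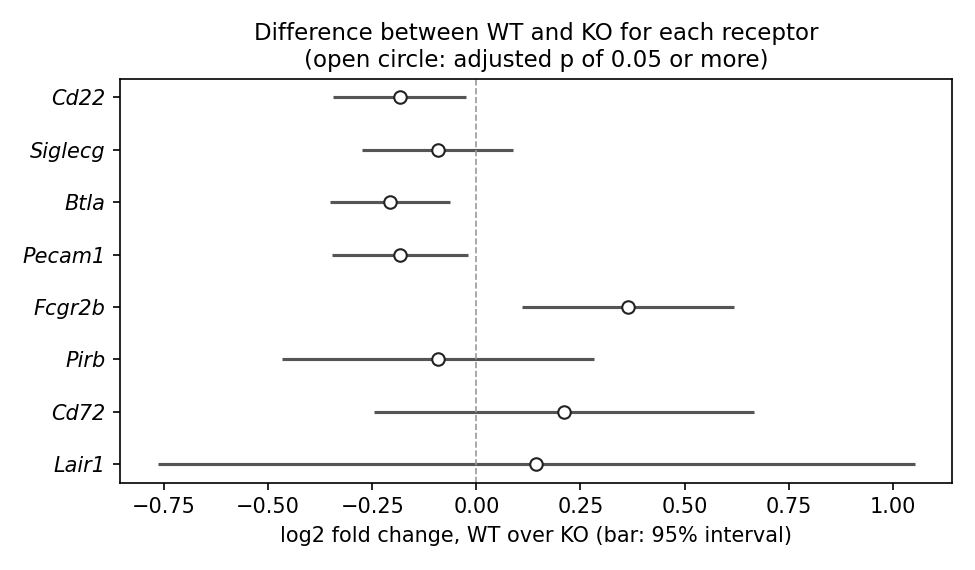
Log2 fold change of WT over KO for each receptor, in order of abundance, with its 95% interval; open circles mark an adjusted p of 0.05 or more, which holds for all 8. The intervals for Cd22, Btla and Pecam1 lay below 0, that for Fcgr2b lay above 0, and those for the other 4 spanned 0.

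Cd22 and Siglecg encode lectins of the Siglec family, whose ligands are sialylated glycans on the same or other cells. Cd22 (chromosome 7, 30865402 to 30880342, mm10) stood at 478, 566 and 611 CPM in WT and at 589, 628 and 663 CPM in KO. WT replicate 1 was the lowest library, and WT replicate 3 lay within the KO range. The fitted WT level was 88.0% of the KO level (log2 fold change -0.18 ± 0.08 SE, 95% interval -0.34 to -0.02, edgeR adjusted p = 0.32). Without WT replicate 1 the log2 fold change was -0.09.

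Siglecg (chromosome 7, 43408204 to 43418358), whose product Siglec-G acts mainly in B1 cells but is also made by conventional B cells, stood at 363, 353 and 397 CPM in WT and at 397, 336 and 454 CPM in KO. The KO libraries enclosed all WT values. The log2 fold change was -0.09 ± 0.09 (SE), its 95% interval of -0.27 to 0.09 spanned 0, with edgeR adjusted p = 0.757. Without KO replicate 3, the highest library, the log2 fold change was 0.017, and without WT replicate 2 it was -0.06.

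Btla, encoding an inhibitory receptor of the immunoglobulin superfamily that engages HVEM, was the only member whose groups did not overlap. Btla (chromosome 16, 45224315 to 45257670) stood at 354, 339 and 364 CPM in WT and at 389, 394 and 437 CPM in KO. All WT values lay below all KO values, an ordering that 8.28% of tested genes shared. In 8.43% of genes all WT values lay above all KO values, which held for none of the receptors, and 16.7% of genes had groups that did not overlap in either direction. The fitted WT level was 86.6% of the KO level (log2 fold change -0.21 ± 0.07 SE, 95% interval -0.35 to -0.06, edgeR adjusted p = 0.166). When KO replicate 3 was left out, the log2 fold change was -0.15 (edgeR adjusted p = 0.604).

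Pecam1 (chromosome 11, 106654217 to 106750628), an adhesion molecule of leukocytes, platelets and endothelium, had a fitted difference of like size. Pecam1 stood at 228, 213 and 261 CPM in WT and at 267, 258 and 273 CPM in KO. WT replicate 3 lay within the narrow KO range, and the other WT libraries lay below it. The fitted WT level was 88.1% of the KO level (log2 fold change -0.18 ± 0.08 SE, 95% interval -0.35 to -0.02, edgeR adjusted p = 0.339). Without WT replicate 2, the lowest library, the log2 fold change was -0.12. Of 7 endothelial markers, Cdh5, Kdr, Tek, Egfl7 and Emcn were not among the genes of the table. Absence by itself does not show a low level: the erythroid markers Hba-a1 and Hba-a2 were absent too, while Hbb-bs was at 3721 CPM in WT. Vwf and Esam together came to 1.48 to 2.27 CPM in WT and 0.39 to 1.85 CPM in KO. Summed platelet markers (5 of 5 counted) were at 21.6 to 34.2 CPM in WT and 19.5 to 32.3 CPM in KO.

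Cd22, Btla and Pecam1, at fitted WT levels of 86.6% to 88.1% of KO, were set beside markers of follicular B cells. Of 8 markers 7 were in the table, of which 4 had a negative log2 fold change, as did 50.4% of all tested genes. Among these markers 1, Cd79b, was called lower in WT, as were 0.514% of all tested genes. The summed level of the markers was 3932 to 4067 CPM in WT and 4444 to 4535 CPM in KO, with no overlap. Not all markers shared this gap. Cd79b was at 736 CPM in WT against 964 in KO, and Fcer2a was at 430 against 519. Log2 fold changes were -0.07 for Ms4a1, 0.07 for Ebf1, 0.05 for Cd79a and 0.18 for Pax5. Fcer2a is among the genes that the paper reports as higher in KO cells later in culture. The sum is therefore not a level common to all B cell markers. Whether the shifts of Cd22, Btla and Pecam1 are separate from the summed level of the B cell markers was not tested.

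Fcgr2b (chromosome 1, 170958617 to 170976547), encoding the inhibitory IgG receptor FcγRIIB, had its fitted difference in the other direction. Fcgr2b stood at 81.7, 103 and 68.5 CPM in WT and at 62.7, 71.4 and 62.6 CPM in KO. WT replicate 2 was the highest library, and WT replicate 3 lay within the KO range. The fitted WT level was 129% of the KO level (log2 fold change 0.36 ± 0.12 SE, 95% interval 0.11 to 0.62, edgeR adjusted p = 0.174). The log2 fold change was 0.20 without WT replicate 2 (edgeR adjusted p = 0.586) and 0.49 without WT replicate 3 (edgeR adjusted p = 0.0513).

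Because macrophages and neutrophils also make FcγRIIB, PIR-B and LAIR1, myeloid markers are given beside these genes. All 12 were in the table, and their summed level was 269 to 331 CPM in WT and 277 to 313 CPM in KO, mostly from Cst3. Of the 10 that were tested, 0 were called and 9 had a positive log2 fold change, with a median of 0.42. Of all tested genes 50.4% had a negative one. The most abundant markers differed little. Log2 fold changes were -0.07 for Cst3 at 201 CPM in WT, 0.06 for Tyrobp at 29.8 CPM and 0.17 for Csf1r at 24.0 CPM. Fcer1g, next in abundance, was at 15.7 CPM in WT against 10.5 in KO. Its log2 fold change was 0.59 (edgeR unadjusted p = 0.0263, adjusted p = 0.322). The highest WT library was at 21.5 CPM for Fcer1g, and the other WT values lay within the KO range. The largest fitted folds of the list were those of scarce markers. Lyz2, a macrophage and neutrophil lysozyme, was at 3.62 CPM in WT against 2.14 in KO. Fcgr3, an activating Fc receptor of myeloid cells, was at 2.99 CPM in WT against 1.62 in KO. S100a8 and S100a9 were highest in WT replicate 2, at 12.4 and 13.4 CPM, which was also the highest library for Fcgr2b. Csf1r was lowest in that library, at 16.2 CPM. The part of the myeloid markers in the Fcgr2b value was not tested.

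The least abundant receptors were measured with little precision. Pirb (chromosome 7, 3711409 to 3720391) stood at 30.6, 18.2 and 29.6 CPM in WT and at 32.1, 25.9 and 25.7 CPM in KO. WT replicate 2 was the lowest library, and the other WT values lay within the KO range. The log2 fold change was -0.09 ± 0.18 (SE), with a 95% interval of -0.47 to 0.28, and it was 0.11 without WT replicate 2. Pirb belongs to a family of near-identical paired receptors whose activating members share its extracellular sequence, so reads could have been split between them. Lilra6, the only other family member in the table among the activating genes looked for, was at 6.04 to 7.83 CPM in WT and 7.30 to 11.3 CPM in KO.

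Lair1 (chromosome 7, 4003402 to 4063204), encoding a collagen receptor, rested on 18 to 56 reads per library. It stood at 4.03, 2.15 and 6.36 CPM in WT and at 4.19, 4.14 and 3.02 CPM in KO, and the WT libraries enclosed the KO libraries. The 95% interval of its log2 fold change ran from -0.76 to 1.05, and the log2 fold change, 0.14 with all libraries, was -0.28 without WT replicate 3 and 0.45 without WT replicate 2.

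Cd72 (chromosome 4, 43446462 to 43454628), a lectin-like B cell receptor that engages semaphorin 4D, stood at 12.5, 15.0 and 13.9 CPM in WT and at 12.5, 12.9 and 10.4 CPM in KO. The groups overlapped, and the log2 fold change was 0.21 ± 0.22 (SE), with a 95% interval of -0.25 to 0.67. Its level is uncertain. Of the last 500 exonic bases of its longest transcript, where most reads of a 3′ end kit fall, 348 overlap exons of Tesk1 on the opposite strand, and the use of strand in counting was not given. Tesk1 itself was at 25.9 CPM in WT against 26.9 in KO. Cd22 shares 479 exonic bases with Gm29439 and Fcgr2b shares 155 with Gm38204, both on the opposite strand, but none within the last 500 bases.

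**Figure D3:**
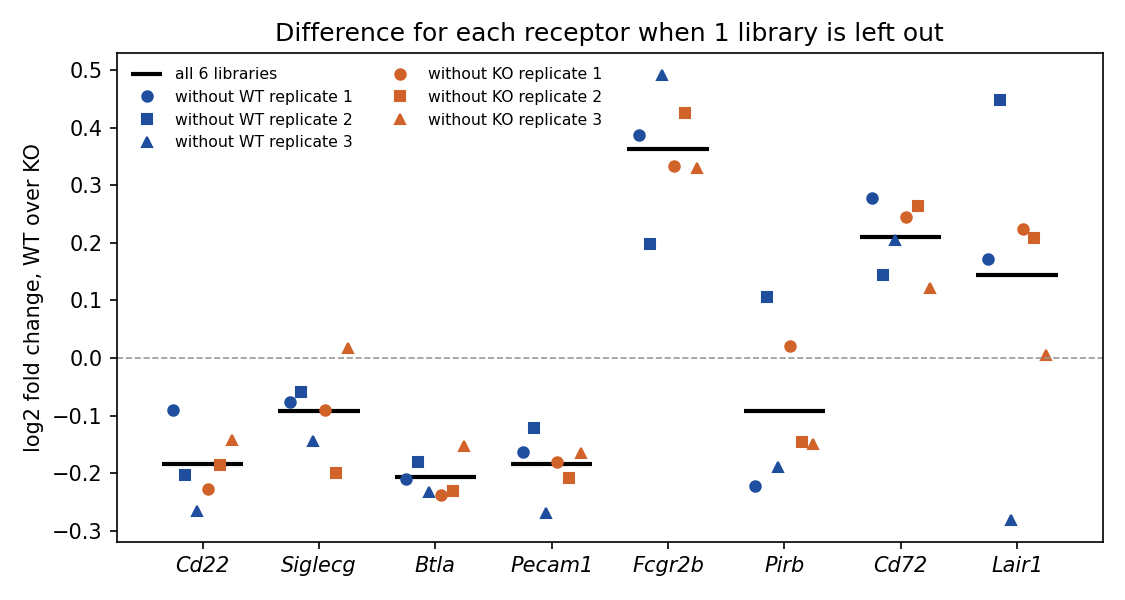
Log2 fold change of WT over KO for each receptor in the 6 fits that each left out 1 library (points) and with all 6 libraries (bars). Cd22, Btla, Pecam1, Fcgr2b and Cd72 kept their sign in all 6, whereas Siglecg, Pirb and Lair1 crossed 0, and Fcgr2b was lowest, at 0.20, without WT replicate 2.

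Promoters were read for letters of the cAMP response element (CRE), the site bound by CREB-family factors downstream of Gαs and cAMP. RefSeq windows (GRCm38.p6) of 250 bases before to 50 bases after the start were given for 7 of the 8 receptors. The full palindrome TGACGTCA was in none of them, and it was in 1.79% of 32851 windows over all genes. Its core, TGACG on either strand, which the palindrome also contains, was in 1 of the 7, Cd72, and in 20.8% of all windows. The window of Cd72 is shown for that match, in capitals, which begins 28 bases before the start. Those of Btla and Fcgr2b are shown because these receptors had the smallest p in each direction, and neither window holds these letters. No match says only that the letters are not in this window. The Btla window lies at chr16:45224087-45224386 on the plus strand, the Fcgr2b window at chr1:170976022-170976321 and the Cd72 window at chr4:43454577-43454876, both on the minus strand, each written 5′ to 3′ along its gene.
Btla: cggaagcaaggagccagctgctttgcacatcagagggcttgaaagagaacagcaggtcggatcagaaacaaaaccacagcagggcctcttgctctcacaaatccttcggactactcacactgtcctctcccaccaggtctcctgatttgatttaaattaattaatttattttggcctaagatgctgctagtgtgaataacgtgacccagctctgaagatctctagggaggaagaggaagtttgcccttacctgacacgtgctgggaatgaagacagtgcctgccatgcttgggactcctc
Fcgr2b: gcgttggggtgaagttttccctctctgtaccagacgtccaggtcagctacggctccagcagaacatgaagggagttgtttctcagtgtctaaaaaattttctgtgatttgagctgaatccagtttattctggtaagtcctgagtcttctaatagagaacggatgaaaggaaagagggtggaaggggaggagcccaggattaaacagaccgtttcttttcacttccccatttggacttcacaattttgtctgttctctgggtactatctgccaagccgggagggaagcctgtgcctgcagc
Cd72: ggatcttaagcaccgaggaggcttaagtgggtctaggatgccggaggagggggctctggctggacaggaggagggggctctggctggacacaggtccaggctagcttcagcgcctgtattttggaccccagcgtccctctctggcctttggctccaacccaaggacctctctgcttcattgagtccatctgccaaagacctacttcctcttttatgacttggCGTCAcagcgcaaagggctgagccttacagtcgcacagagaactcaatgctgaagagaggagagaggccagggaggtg

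Kinases and phosphatases that work with ITIM receptors were then examined. Of 6 kinases, 1 was called lower in WT and 0 higher, against 0.514% and 1.3% of all tested genes, and the median log2 fold change was -0.09. Blk, a Src-family kinase of B cells, stood lower in WT, at 199 CPM against 252 in KO (log2 fold change -0.34 ± 0.08 SE, edgeR adjusted p = 0.0158). With 1 library left out at a time, Blk missed the threshold in 4 of 6 fits, by edgeR adjusted p values of up to 0.187. Lyn, the kinase most tied to ITIM phosphorylation, was at 471 CPM in WT against 491 in KO, and the 95% interval of its log2 fold change ran from -0.19 to 0.07. Csk, which restrains Src-family kinases, missed the threshold (log2 fold change -0.25, edgeR adjusted p = 0.0526).

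Of 10 phosphatases and adaptors, 9 were tested, with 1 called higher in WT and 0 lower, against 1.3% and 0.514% of all tested genes. The median log2 fold change of the list was -0.03. Inpp5d, encoding SHIP-1, the main partner of FcγRIIB, stood higher in WT, at 198 CPM against 159.6 in KO (log2 fold change 0.31 ± 0.08 SE, edgeR adjusted p = 0.0372). The call rested on all 6 libraries: with any 1 left out, the edgeR adjusted p of Inpp5d was 0.0525 to 0.256. Ptpn6, encoding SHP-1, the partner of CD22, was the most abundant of the list at 1164 CPM in WT against 1315 in KO (log2 fold change -0.18, edgeR adjusted p = 0.192).

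Ligands and the enzymes that make them showed no call. Of 9 listed genes 8 were tested, 0 were called and 4 were below 0, with a median of 0.02, and at an unadjusted p under 0.05 there were also 0. Tnfrsf14, encoding HVEM, was not among the genes of the table, which by itself does not show a low level. The most abundant were B2m, at 4364 CPM in WT against 4722 in KO, and H2-K1, at 2925 against 3108, both parts of class I MHC, the ligand of PIR-B. St6gal1, the sialyltransferase that makes glycan ligands of CD22, had a WT to KO difference of 0.10 on the log2 scale (95% interval -0.05 to 0.25).

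Among 5 activating counterparts of the BCR complex, 1 was called lower in WT and 0 higher, against 0.514% and 1.3% of all tested genes. Cd79b, a signaling chain of the BCR, stood lower in WT, at 736 CPM against 964 in KO (log2 fold change -0.39 ± 0.06 SE, edgeR adjusted p = 0.000358), and passed the threshold with any 1 library left out. Cr2, a complement receptor, and Cd81, a tetraspanin, had log2 fold changes of -0.02 and 0.02.

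**Figure D4:**
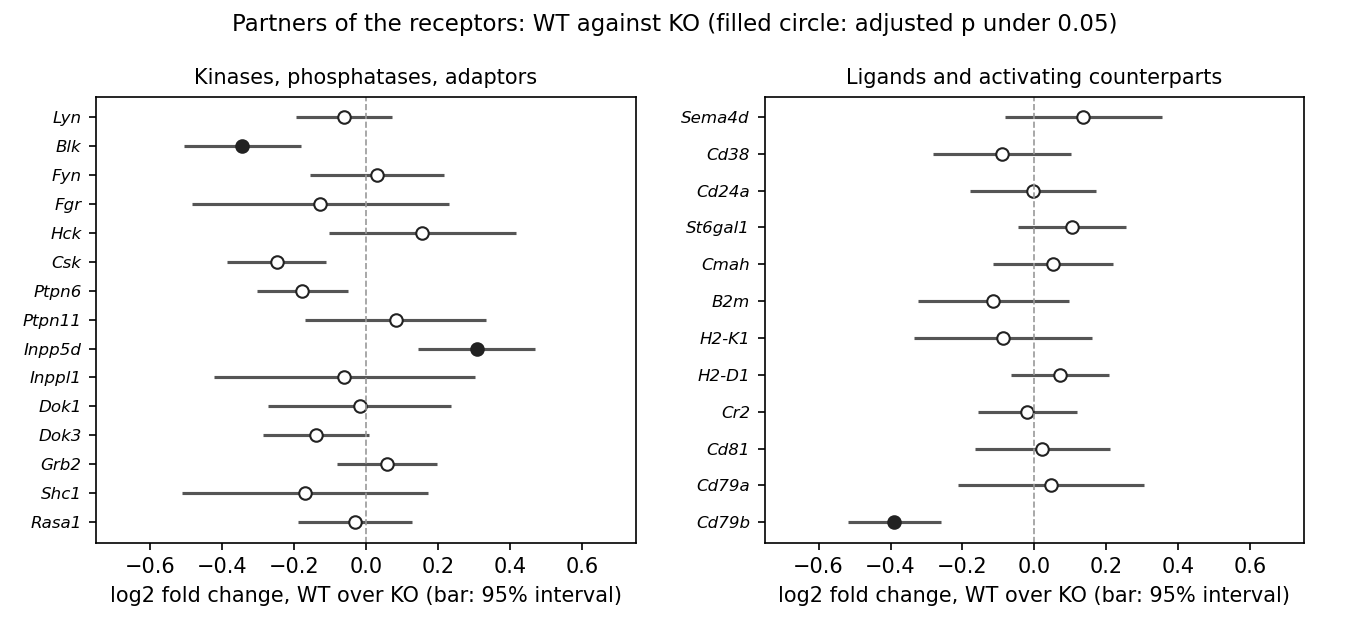
Log2 fold change of WT over KO with 95% intervals for kinases, phosphatases and adaptors (left) and for ligands and 4 of the activating counterparts (right); filled circles mark an adjusted p under 0.05. Filled circles stand at -0.34 for Blk, 0.31 for Inpp5d and -0.39 for Cd79b.

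The genes of a second, partial list of receptors with an ITIM or a related motif were scarce in these cells. Of 18 listed, 14 were in the table and 9 passed the filter. Their summed level was 83.4 to 96.2 CPM in WT and 76.2 to 94.0 CPM in KO, against 1552 to 1752 CPM in WT and 1730 to 1929 CPM in KO for the 8 receptors above. None of the 9 was called by edgeR, and there were 0 at an unadjusted p under 0.05. Ceacam1, an adhesion receptor with ITIMs, was the most abundant at 24.3 CPM in WT against 20.4 in KO. Milr1, listed under its synonym Gm885, followed at 13.7 CPM in WT against 18.2 in KO.

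Over the 6 libraries, the genes whose log2 CPM most closely followed each receptor were Aprt and Recql5 for Cd22, Faim3 and Cpsf1 for Btla, Galnt10 and Klc4 for Pecam1, and B3gntl1 and Dnajb14 for Fcgr2b. They were Ube2d3 and Neat1 for Siglecg, Grpel1 and Exosc9 for Pirb, Sft2d2 and Elmo1 for Cd72, and 5031414D18Rik and Fbxl19 for Lair1. The likeness was the highest Pearson correlation among 8553 genes (8554 for Lair1), and 12 to 48 genes reached 0.95 with each receptor. The libraries differ in genotype and depth, which all genes of a library share, and 6 points allow many such matches, so this is a description only.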

How the data were processed

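Follicular B cells from 3 WT and 3 KO mice were sequenced after 1 h of culture, with groups taken from the library titles. The authors made 3′ end libraries with a QuantSeq kit, aligned single-end reads to mm10 with STAR and assigned them to genes with HTSeq, per the study's methods. Tool versions, annotation and strand setting are not given in the sources used here. The deposited table gives raw counts, neither normalized nor pooled, and 0 sample columns were left unused. The smallest row total was 10. HTSeq by default leaves out reads that cannot be assigned to a single gene.

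Symbols were matched directly or through a RefSeq synonym held by 1 gene only. Genes were filtered with filterByExpr, scaled by TMM and tested with edgeR (version 4.0.16, R 4.3.3) by quasi-likelihood F tests with robust dispersions, two-sided, with Benjamini-Hochberg adjustment over all 10514 tested genes and a threshold of 0.05. SEs are the absolute log2 fold change over the square root of F, and 95% intervals use the fit's degrees of freedom. The test was checked on simulated counts. Alternatives were DESeq2 (version 1.42.0), limma-voom (limma 3.58.1), other scalings and filters, ordinary dispersions, leaving out the 50 most abundant genes, a block for the replicate number, and leaving out each library. Within groups, pairs of libraries differed by a chi-square per degree of freedom of 6.89 to 10.9, so none were copies. Reads carry no molecular identifiers.

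The receptors and gene lists were chosen with earlier results of these data known. All receptors are named, as are genes of the pathway lists that passed the test or, where none did, the 2 most abundant of the list. Cell type markers and others named in the text were picked after their values were seen. Positions are from GENCODE M21 (mm10). A planned scan of protein sequences for ITIMs was not run, because no protein sequences were used here. Values of 1 gene of the lists are not reported here.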

Additional observations from a re-analysis of the deposited data

How the results depend on the processing

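None of the 8 receptors was called in any of the 10 alternative settings or the 6 fits without 1 library; Lair1, below a mean of 50 counts, was not tested in 1 of the settings. Under the 10 settings the receptors kept their signs, and adjusted p ranged from 0.0947 to 0.21 for Btla, 0.0795 to 0.226 for Fcgr2b, 0.118 to 0.362 for Cd22 and 0.208 to 0.378 for Pecam1. Without 1 library, log2 fold changes ranged from -0.28 to 0.45 for Lair1, from -0.22 to 0.11 for Pirb (0.11 without WT replicate 2 and 0.021 without KO replicate 1) and from -0.20 to 0.017 for Siglecg. The median over the receptors, -0.09 with all libraries, ranged from -0.21 without WT replicate 3 to 0.023 without WT replicate 2. The number of genes called over all genes was 191, stayed between 170 and 281 under the 10 settings, and ranged from 91 (without KO replicate 3) to 183 without 1 library; without KO replicate 2 it was 113. Genes lower in WT ranged from 22 to 59 without 1 library. With the replicate number as a block it was 281, of which 95 were lower in WT against 54 without the block. Same-numbered WT and KO libraries correlated at 0.05, 0.01 and 0.04 in their deviations from the group means. Libraries of unlike number had negative correlations. These small values do not settle whether the numbers pair the mice, so the main fit has no block and the blocked fit is given beside it. The block called none of the receptors. The Inpp5d call was lost in 1 of the 10 settings, at an adjusted p of 0.055. Lair1, with the fewest counts, had the widest interval, 58.9% to 207% of the KO level. The causes of these changes were not tested.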

Other observations

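Counts of a few B cell genes were low beside those of their partners. Cd79a, which pairs with Cd79b in the BCR, was at 50.6 CPM in WT against 49.0 in KO, where Cd79b was at 736 and 964 CPM, and Pax5, a factor that defines B cells, was at 10.3 CPM and 9.04 CPM. Cd72 at 12.9 CPM is described above with its overlap of Tesk1, and no annotated gene overlaps Cd79a in GENCODE M21. These genes were picked after their values were seen, and the levels in this paragraph were not divided by transcript length.

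Summed erythroid markers, of which 3 of 6 were in the table, ranged from 2679 to 4714 CPM in WT and from 3011 to 7569 CPM in KO, mostly from Hbb-bs, listed under its synonym Beta-s. Of 5 plasma cell markers 4 were tested, of which 1 was called, Slamf7, lower in WT (edgeR log2 fold change -0.47), where 0.514% of all tested genes were called lower. The others were not called, at 0.47 for Jchain, 0.36 for Sdc1 and -0.003 for Prdm1, and the list median was 0.18. Summed marginal zone B cell markers, mostly Cr2 and Plac8, were at 1767 to 1886 CPM in WT and 1642 to 1942 CPM in KO. Summed NK cell markers were at 8.17 to 15.3 CPM in WT and 6.32 to 6.92 CPM in KO.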
